A study of Rattus norvegicus with 15 samples.

Results

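Plau, Spp1 and Lgals3 encode 3 proteins linked to tissue invasion, macrophages and reactive stroma, and each was measured by 1 probe among 3757 probes on 15 liver arrays. They were taken by gene symbol, as 3 of the 3400 genes that a probe with a single symbol named. They were chosen by measured values of these same arrays: Plau had been seen to separate hepatocellular carcinoma from control liver, and Lgals3 to separate carcinoma from cirrhotic liver. Values of the genes in the carcinoma comparisons are therefore given as a description, without a test. The 3 genes did not follow a shared course. Plau was high in carcinoma, Lgals3 was low in cirrhotic liver with overlapping values in control and carcinoma, and Spp1 overlapped among all 3 tissues. The Lgals3 probe lay in a stretch of probe numbers that shifted together between tissues. With a running median along these numbers removed, its cirrhotic minus control difference went from -2.18 to -1.23 on the log2 scale. Carcinoma and cirrhotic samples then overlapped for Lgals3.

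All samples came from male rats, Fischer344 (given as Fischer for control 1), after 70 weeks on a diet. The 5 control samples were normal liver of rats on a basal diet. The 5 carcinoma samples were tumours of rats fed the choline-deficient, L-amino acid-defined diet, and the 5 cirrhotic samples were noncancerous, cirrhotic liver around such tumours in rats on that diet. Diet and tissue state thus differ together from control, and the labels do not say which tumour and cirrhotic sample shared an animal, nor whether each sample of a tissue came from its own rat. P-values here therefore cover only sample-to-sample spread, which may be technical. In bulk tissue a lower value can mean fewer cells of a type or less RNA per cell, and these cannot be told apart.

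Urokinase, the product of Plau, is a secreted serine protease that turns plasminogen into plasmin at the surface of cells that carry its receptor, and so opens fibrin and matrix to migrating cells. Osteopontin, the product of Spp1, is a secreted phosphoprotein that binds integrins and CD44, and in liver it is known from bile duct cells, activated macrophages and stellate cells. Galectin-3, the product of Lgals3, is a lectin that binds galactose-containing glycans, is abundant in macrophages, and is used as a marker of activated phagocytes in injured liver.

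Each deposited value is a ratio to the median of that probe on the 15 arrays, set to 1, so levels can be compared between samples for a gene but not between genes. Differences are on the log2 scale after quantile normalization over the arrays, with 95% intervals from a limma fit of all 3757 probes. In each of the 3 comparisons 0 probes, or 0.0%, passed an adjusted p of 0.05 in limma, with smallest values of 0.307 for cirrhotic minus control, 0.459 for carcinoma minus control and 0.224 for carcinoma minus cirrhotic. At an unadjusted p under 0.05 the shares were 9.64%, 7.40% and 13.2%. These centred ratios hold no absolute level, so the markers of a tissue could be compared only between tissues. In cirrhotic minus control the stellate cell and myofibroblast markers had a median of 0.00, with 10 of 19 above 0. Among them Col1a1 differed by -1.11, Acta2 by 0.00 and Pdgfra by 1.77. As a list these markers of scar-forming cells were thus not higher in cirrhotic liver than in control. Of 22 hepatocyte markers 21 were measured, and their mean log2 ratio per sample overlapped among control (-0.81 to 0.38), cirrhotic (-0.83 to 1.04) and carcinoma (-0.49 to 0.85). Single markers went different ways. Otc, an enzyme of the urea cycle, differed by -3.04 in carcinoma minus cirrhotic (95% interval -4.58 to -1.49, limma adjusted p = 0.224), with all carcinomas below all cirrhotic samples. Cyp3a2, a drug-metabolizing cytochrome, differed by -2.34 in carcinoma minus control (95% interval -3.90 to -0.79, limma adjusted p = 0.489), with all carcinomas below all controls. Furthest above 0 were Apoa1, an apolipoprotein, at 2.35 in cirrhotic minus control, Ahsg, the plasma protein fetuin-A, at 1.52 in carcinoma minus control, and Ttr, a thyroid hormone carrier, at 1.92 in carcinoma minus cirrhotic and furthest below, at -1.52, in cirrhotic minus control.

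RefSeq's table for the rat assembly GRCr8 lists a start region for Plau and for Spp1. The 250 bases upstream of the listed start are shown for these genes to set the sequence in front of the gene that was high in carcinoma beside that of the gene that was not. Capitals mark the GC box (GGGCGG or its reverse complement) and the TATA box (TATAAA or its reverse complement).
Plau, chr15:3511988-3512237, minus strand: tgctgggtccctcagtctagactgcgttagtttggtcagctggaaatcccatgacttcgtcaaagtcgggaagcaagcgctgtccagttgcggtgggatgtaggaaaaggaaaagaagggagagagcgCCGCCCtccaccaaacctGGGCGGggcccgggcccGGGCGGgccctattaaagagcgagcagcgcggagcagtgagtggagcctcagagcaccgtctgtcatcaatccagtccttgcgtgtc
Spp1, chr14:5619805-5620054, minus strand: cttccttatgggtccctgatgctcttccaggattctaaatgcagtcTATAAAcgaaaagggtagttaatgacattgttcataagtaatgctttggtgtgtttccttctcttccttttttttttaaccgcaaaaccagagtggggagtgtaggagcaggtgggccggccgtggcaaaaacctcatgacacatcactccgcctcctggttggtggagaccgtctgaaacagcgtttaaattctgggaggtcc
The Plau window held 60% G and C and 3 GC boxes, which began 122, 104 and 87 bases before the start. The Spp1 window held 46.8% G and C, no GC box, and 1 match to the letters TATAAA that began 204 bases before the start. Whether this match works as a TATA box was not tested. Over 33469 rat windows of the same length the median was 51.2% G and C, and 30.5% held a GC box and 12.9% a TATA box on either strand. The AP-1 motif TGANTCA, searched on both strands, was in neither window and in 6.34% of all windows. These letters are a description of the sequence, and the arrays give no reading of factor binding.

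Plau was high in carcinoma and mixed in cirrhotic liver. Its deposited ratio in control liver was 0.766, 0.355, 0.562, 0.662 and 0.232 in controls 1 to 5. In carcinoma it was 6.89, 3.73, 3.24, 1.33 and 3.44 in samples 1 to 5. Every carcinoma sample lay above every control sample, and carcinoma 4 was the nearest to them. In cirrhotic liver the ratio was 7.71, 0.409, 0.275, 1.31 and 1.0 in samples 1 to 5. Cirrhotic 1 was thus the highest of all 15 samples, cirrhotic 2 and 3 lay within the control range, and cirrhotic 4 and 5 lay between the other tissues. After normalization cirrhotic 1 stood at a log2 ratio of 1.96, below carcinomas 1, 2 and 3. Cirrhotic 3 then stood at -2.58, below all controls, of which control 5 was the lowest at -1.61.

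**Figure D1:**
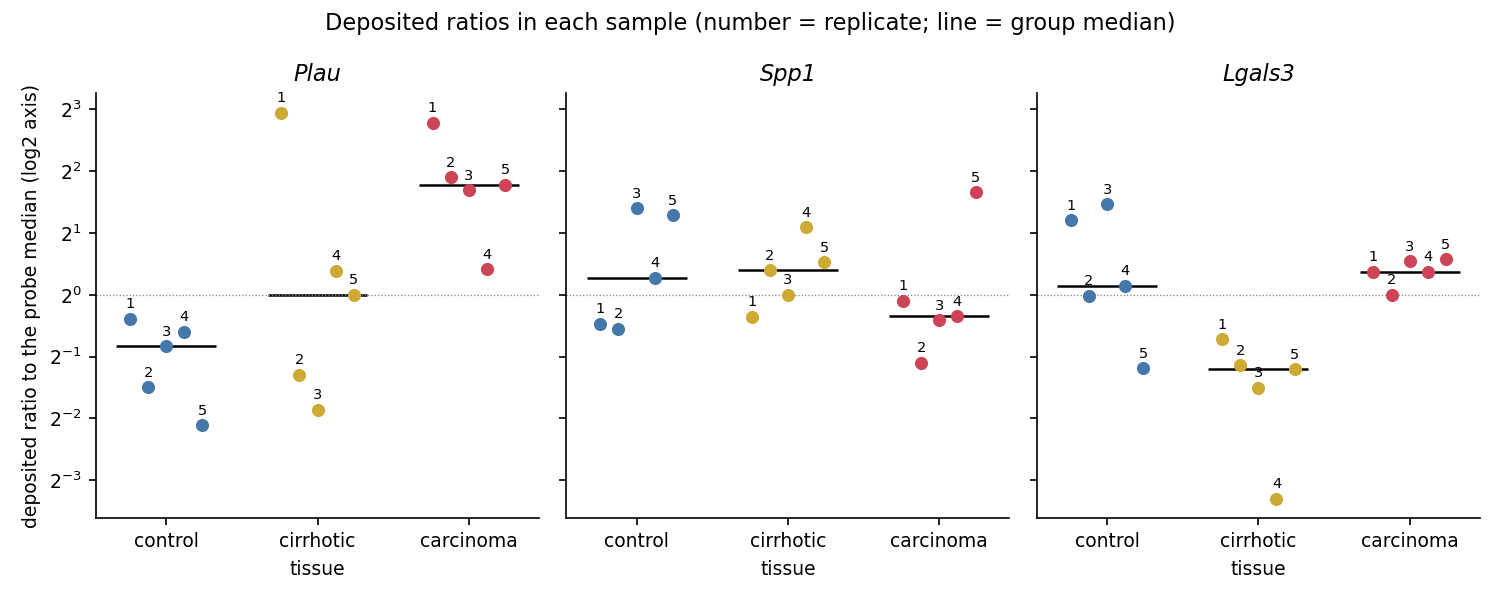
Deposited ratio to the probe median on a log2 axis (y) for Plau, Spp1 and Lgals3 in control, cirrhotic and carcinoma samples (x); each point is 1 sample marked with its replicate number, and the line is the group median. Plau in carcinoma (1.33 to 6.89) lies above all controls (0.232 to 0.766), Spp1 overlaps throughout, and Lgals3 in cirrhotic liver (0.102 to 0.608) lies below all carcinomas (1.0 to 1.49).

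After normalization Plau had a mean log2 ratio of 1.65 ± 0.70 (SD, n = 5) in carcinoma, -0.27 ± 1.72 (SD, n = 5) in cirrhotic samples and -1.004 ± 0.47 (SD, n = 5) in controls. The difference of carcinoma minus control was 2.65 (95% interval 1.34 to 3.97), a 6.28-fold higher geometric mean. It lay at the 99.8th percentile of all probes' differences. Complete separation with carcinoma higher, as for Plau, was seen in 1.06% of probes, and this comparison is the one in which the gene was noticed.

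Carcinoma minus cirrhotic was 1.92 for Plau (95% interval 0.60 to 3.23), and 3 of 5 carcinoma samples lay above all cirrhotic samples. Without cirrhotic 1 the difference was 2.36 and all 5 carcinomas lay above the remaining cirrhotic samples. Separation was common in that setting: 293 of 3757 probes separated in either direction, against 102 with all samples. Cirrhotic 1 had 209 values at the table's lower limit of 0.01, against 0 to 10 in the other cirrhotic samples, and a part of this in its Plau value was not tested. Cirrhotic minus control was 0.73 (95% interval -0.58 to 2.05, limma adjusted p = 0.689), a difference within the spread between samples, and it was 0.17 without cirrhotic 1 and 1.35 without cirrhotic 3. That comparison shares its control samples with the one in which Plau was noticed, so it is not independent of the choice. In order of mean the tissues ran control, cirrhotic, carcinoma, with the spread of cirrhotic liver reaching across both neighbours.

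The genes of the plasminogen system around urokinase overlapped between tissues. Of 22 listed genes 12 were measured, 0 passed an adjusted p of 0.05 in limma in any comparison and 0 separated the groups. The median difference of carcinoma minus control was 0.39, with 8 of 12 above 0, beside a median of 0.00 over all probes. Plaur, the cell surface receptor of urokinase, had the difference furthest above 0, at 1.03 (95% interval -1.01 to 3.07). Its deposited ratio was 4.37, 0.275, 4.24, 0.392 and 0.257 in controls 1 to 5 and 17.4, 2.74, 0.307, 0.348 and 5.09 in carcinomas 1 to 5. Both groups thus held samples far below and far above the probe median, and the difference was 0.39 without carcinoma 1. In cirrhotic liver Plaur was 13.9 in sample 1, the sample with the highest Plau ratio, and 0.256 to 2.11 in the others.

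Plat, the other plasminogen activator, differed by 0.63 in carcinoma minus control, and Plg, the plasminogen that both enzymes cleave, by 0.20. In carcinoma minus cirrhotic they differed by 0.16 and 0.90. S100a10, a plasminogen-binding partner of annexin A2, stood furthest below 0 in carcinoma minus control, at -1.76 (95% interval -3.22 to -0.30, limma adjusted p = 0.575). Hgf, the growth factor of hepatocytes that proteases of this family activate, stood furthest below 0 in carcinoma minus cirrhotic, at -1.58 (limma adjusted p = 0.260). Serpina5, a serpin that inhibits urokinase, differed by -1.87 in cirrhotic minus control and by 1.59 in carcinoma minus cirrhotic, with a 95% interval for the latter of -0.97 to 4.14. Igf2r, a receptor that also binds plasminogen, stood furthest above 0 in cirrhotic minus control, at 1.24.

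Plasmin acts beside the matrix metalloproteinases, of which, with their inhibitors, 17 of 26 listed genes were measured. Their median difference was 0.05 in carcinoma minus control and 0.21 in carcinoma minus cirrhotic, and 0 genes passed an adjusted p in limma. Bsg, the metalloproteinase inducer basigin, was the 1 gene of this list that separated carcinoma from control, higher by 1.48 (95% interval 0.31 to 2.64, limma adjusted p = 0.564). Mmp9, a gelatinase of inflammatory cells, had the lowest difference of the list, at -1.74 (95% interval -3.27 to -0.21) in carcinoma minus control and -1.35 in carcinoma minus cirrhotic, where Bsg was the highest at 1.24. Mmp2 differed by 0.02 and Timp1, a metalloproteinase inhibitor of scar-forming tissue, by 0.34 in carcinoma minus control. In cirrhotic minus control the extremes of the list were Mmp13 at 0.98 and Mmp8 at -0.88.

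Spp1 showed no ordering of the tissues beyond the spread. Its deposited ratio was 0.725, 0.685, 2.65, 1.21 and 2.45 in controls 1 to 5. It was 0.783, 1.32, 1.0, 2.14 and 1.44 in cirrhotic samples 1 to 5. In carcinoma it was 0.935, 0.467, 0.751, 0.789 and 3.16 in samples 1 to 5. The highest and the lowest of the 15 deposited values were both carcinomas, samples 5 and 2, and the other carcinomas stood below 1. After normalization carcinoma 5 stood at a log2 ratio of 1.17, below control 3, control 5 and cirrhotic 4.

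The normalized log2 ratio of Spp1 was 0.55 ± 1.07 (SD, n = 5) in control, 0.41 ± 0.59 (SD, n = 5) in cirrhotic samples and -0.20 ± 1.0 (SD, n = 5) in carcinoma. Carcinoma minus control was -0.74 (95% interval -1.96 to 0.48), which ran from -1.06 without carcinoma 5 to -0.39 without carcinoma 2. Carcinoma minus cirrhotic was -0.61 (95% interval -1.83 to 0.61), and -0.25 without carcinoma 2. Cirrhotic minus control was -0.14 (95% interval -1.36 to 1.08, limma adjusted p = 0.941), a difference smaller than the spread between samples. Its differences lay at the 15.7th, 25.2nd and 42.5th percentile of all probes for carcinoma minus control, carcinoma minus cirrhotic and cirrhotic minus control.

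Of 17 osteopontin receptors, processing enzymes and relatives in the same bone protein family 7 were measured, with 0 past an adjusted p in limma and 0 separated. In carcinoma minus cirrhotic 1 of 7 stood above 0 and the median was -0.84, beside -0.02 over all probes. Cd44, an osteopontin receptor, differed by -0.98 there, and Itgb1, a subunit of integrins that bind osteopontin, by -0.78. In carcinoma minus control these receptors differed by -0.35 and 0.28, and in cirrhotic minus control by 0.63 and 1.06, with Itgb1 furthest above 0 of the list. Ibsp, the related bone sialoprotein, differed by -1.94 in carcinoma minus control (95% interval -3.43 to -0.46, limma adjusted p = 0.564) and by -1.11 in cirrhotic minus control. F2, the prothrombin whose active form cuts osteopontin, was the gene furthest above 0 in both carcinoma comparisons, at 0.67 against control and 0.49 against cirrhotic liver. Mmp3, a metalloproteinase that cuts osteopontin, was furthest below 0 in carcinoma minus cirrhotic, at -1.08.

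Bile duct cells, a known source of osteopontin, gave 11 measured markers of 18. Their mean log2 ratio per sample ran from -0.34 to 0.19 in control, -0.33 to 0.54 in cirrhotic liver and -0.40 to 0.52 in carcinoma, overlapping as Spp1 did. The list's medians were 0.35 in cirrhotic minus control, 0.04 in carcinoma minus control and -0.24 in carcinoma minus cirrhotic, with 0 genes separated. Aqp1, a water channel of bile duct cells, was furthest above 0 in cirrhotic minus control at 1.62 and in carcinoma minus control at 0.78. Cldn7, a tight junction claudin, was furthest below 0 in both, at -1.22 and -1.40. In carcinoma minus cirrhotic the extremes were Onecut1 at 0.71 and Slc4a2, a bicarbonate exchanger, at -1.02.

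Lgals3, like the probes of neighbouring number described below, was low in cirrhotic liver. Its deposited ratio in cirrhotic samples 1 to 5 was 0.608, 0.453, 0.354, 0.102 and 0.434. In carcinoma it was 1.30, 1.0, 1.46, 1.30 and 1.49 in samples 1 to 5. In control liver it was 2.31, 0.991, 2.76, 1.11 and 0.438 in samples 1 to 5. All carcinomas lay above all cirrhotic samples, and control 5 was the 1 control within the cirrhotic range.

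The normalized log2 ratio of Lgals3 was 0.34 ± 0.27 (SD, n = 5) in carcinoma, 0.36 ± 0.92 (SD, n = 5) in controls and -1.82 ± 1.27 (SD, n = 5) in cirrhotic samples. Carcinoma minus cirrhotic was 2.16 (95% interval 0.81 to 3.51), a 4.47-fold higher geometric mean, and 1.69 without cirrhotic 4. Complete separation with carcinoma higher held in 1.25% of probes, and this is the comparison in which the gene was noticed. Carcinoma minus control was -0.02 (95% interval -1.37 to 1.34), with means that differed by less than the spread. Cirrhotic minus control was -2.18 (95% interval -3.53 to -0.83), the 0.639th percentile of all probes, with a limma adjusted p of 0.307 that did not pass. Without control 5 it was -2.48 and the ranges no longer overlapped, as also without cirrhotic 1, at -2.41. Probes separated in either direction also rose, from 62 with all samples to 199 and 111 in those settings. Cirrhotic minus control shares its cirrhotic samples with the comparison in which Lgals3 was noticed, so it is not independent of the choice.

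**Figure D2:**
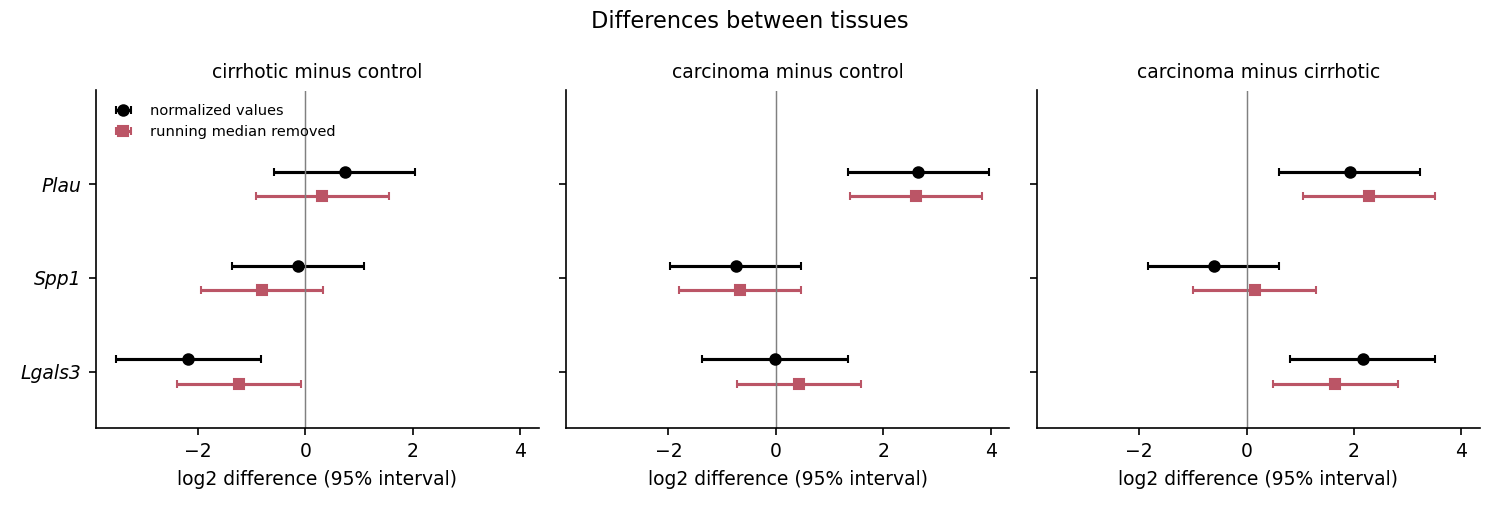
Log2 difference (x) with 95% interval for Plau, Spp1 and Lgals3 (y) in the 3 comparisons, from the normalized values (circles) and after removal of a running median along the probe numbering (squares). Plau in carcinoma minus control stays at 2.65 and 2.60, while Lgals3 in cirrhotic minus control goes from -2.18 to -1.23.

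Neighbouring probe numbers shifted together between tissues, and Lgals3 lay in such a stretch. Probe numbers were 743 for Plau, 1287 for Spp1 and 3686 for Lgals3. Over the 195 other probes within 100 numbers of Lgals3 the median of cirrhotic minus control was -1.07, and 6.67% of them were above 0. The 10 probes nearest to it by number, looked up after its values were seen, all had a difference below 0, from -2.33 to -0.87. They included Mgp, the next number, at -2.33 and Bckdha, 2 numbers away, at -2.04, genes of matrix calcification and of branched-chain amino acid breakdown. Around Plau the median of 189 probes was 0.07 in carcinoma minus control, and around Spp1 the median of 192 probes was 0.84 in cirrhotic minus control and -0.83 in carcinoma minus cirrhotic.

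With a running median that spans 100 probes on either side removed from each array, Plau in carcinoma minus control was 2.60 (95% interval 1.37 to 3.83) and still separated. Lgals3 in cirrhotic minus control was -1.23 (95% interval -2.38 to -0.07, limma adjusted p = 0.995), and in carcinoma minus cirrhotic it was 1.65 (95% interval 0.50 to 2.81) with the groups overlapping. Cirrhotic 1 was then 0.04 for Lgals3 and lay within the carcinoma range, while the other cirrhotic samples lay from -2.59 to -0.92. Spp1 in cirrhotic minus control was then -0.81 (95% interval -1.95 to 0.32), and in carcinoma minus cirrhotic 0.15, with the sign turned. Plau in carcinoma minus cirrhotic was 2.28 (95% interval 1.05 to 3.52).

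The same removal moved several list genes described above. In cirrhotic minus control Cldn7 went from -1.22 to -0.39, Ibsp from -1.11 to -0.14, Mmp8 from -0.88 to -0.02, Mmp13 from 0.98 to 0.36, Cd44 from 0.63 to 0.22, Itgb1 from 1.06 to 0.67, Igf2r from 1.24 to 0.80 and Ttr from -1.52 to -0.59. In carcinoma minus cirrhotic Plg went from 0.90 to 0.47, Cd44 from -0.98 to -0.62, Itgb1 from -0.78 to -0.44, Mmp3 from -1.08 to -0.67 and Onecut1 from 0.71 to 0.21, while Plat went from 0.16 to 0.49 and F2 from 0.49 to 0.86. In carcinoma minus control S100a10, whose probe number 3697 lies near that of Lgals3, went from -1.76 to -1.31. Bsg was 1.45 there but no longer separated. Adam17, a protease that sheds membrane proteins, did separate, at 0.68 against 0.34 before removal. Otc was -2.31 against cirrhotic liver and Cyp3a2 -2.24 against control, both then with overlap.

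**Figure D3:**
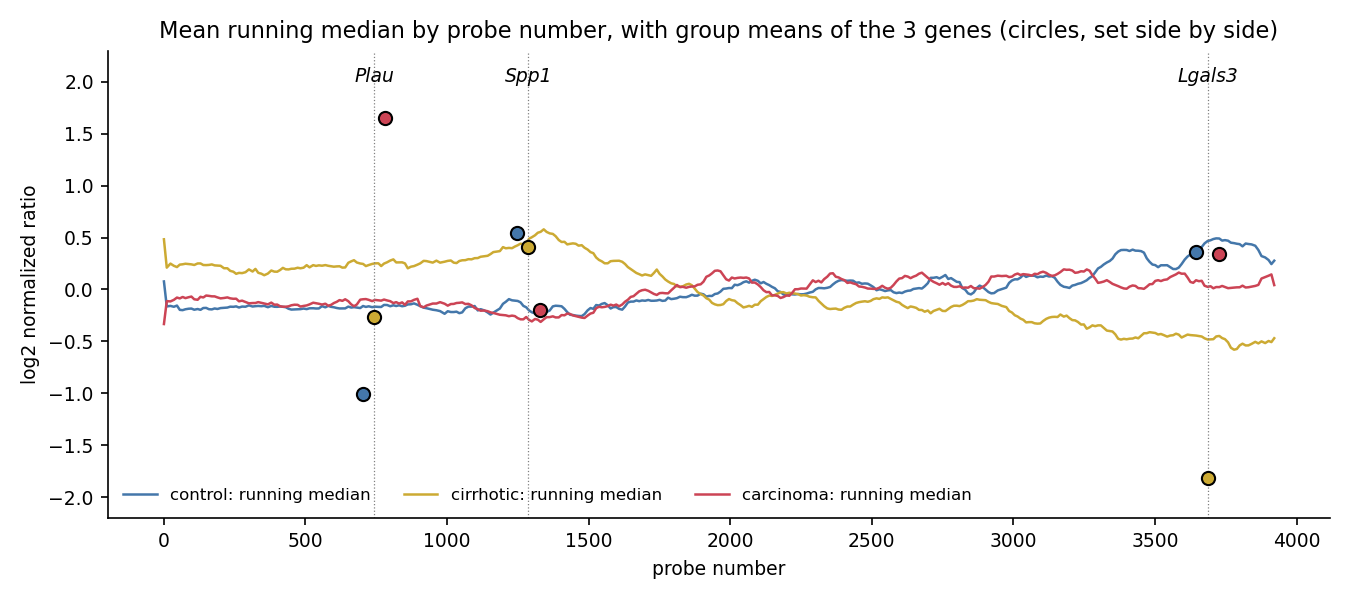
Mean over the 5 arrays of each tissue of the running median of log2 normalized ratios (lines, y) along the probe number (x), with the group means of Plau, Spp1 and Lgals3 as circles set side by side at their place. At Lgals3 the lines stand at 0.47 for control, -0.48 for cirrhotic and 0.03 for carcinoma, while at Plau they stand at -0.16, 0.26 and -0.11.

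Galectins and genes of galectin-3 ligands gave 14 measured genes of 18, with 0 past an adjusted p in limma. Their median in cirrhotic minus control was 0.70, opposite in sign to Lgals3, and 0.32 with the running median removed. The list was mixed in that comparison, with 8 of 14 genes above 0, beside 50.7% of all probes. Lgals9, a galectin of leukocytes and liver, differed by 1.41 there, while Lgals1, a galectin of stroma, differed by -1.07, and with the running median removed these were 0.87 and -1.80. In carcinoma minus cirrhotic the list's median was -0.42, with Lgals2 furthest above 0 at 1.32 and Lgals4 furthest below at -1.39 (-0.71 with the running median removed). Lgals3bp, a secreted glycoprotein that galectin-3 binds, differed by -0.43 in cirrhotic minus control and 0.29 in carcinoma minus cirrhotic. Lamp2, a lysosomal glycoprotein, was furthest above 0 in cirrhotic minus control at 1.54 (0.77 with the running median removed) and in carcinoma minus control at 1.22.

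Mgat5, the enzyme that builds the branched glycans galectin-3 binds, was the 1 gene of the galectin list that separated groups. Its deposited ratio was 1.25 to 5.14 in control, 0.134 to 1.14 in cirrhotic liver and 0.474 to 1.04 in carcinoma. All controls lay above all samples of both other tissues, a separation seen with the first-named group lower in 0.985% of probes for cirrhotic minus control and 0.825% for carcinoma minus control. The differences were -2.29 (limma adjusted p = 0.307) and -1.85 (adjusted p = 0.564). Its probe number, 3794, lies in the same stretch as that of Lgals3, and with the running median removed the differences were -1.29 and -1.43, with the separation from carcinoma kept and that from cirrhotic liver lost.

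Macrophages express Lgals3 and can express Spp1 and Plau, and 8 of 28 macrophage markers were measured, without Cd68. In carcinoma minus cirrhotic 7 of 8 stood above 0 with a median of 0.82 (0.53 with the running median removed), beside -0.02 over all probes, and 0 passed an adjusted p in limma or separated. Csf1r, the receptor that macrophages need to survive, differed by 1.45 and Aif1, a calcium-binding protein of macrophages, by 1.54 (95% interval -0.49 to 3.58), the furthest above 0. Clec4f, a lectin of Kupffer cells, the resident macrophages of liver, was furthest below 0 in cirrhotic minus control, at -1.59 (-0.65 with the running median removed), and in carcinoma minus control at -0.24. Fcgr2b, an inhibitory antibody receptor, was the lowest in carcinoma minus cirrhotic at -0.04, and Csf1r the highest in cirrhotic minus control at 0.28. The list's mean log2 ratio per sample ran from -1.26 to 0.20 in control, -1.42 to 0.22 in cirrhotic liver and -0.17 to 0.82 in carcinoma. The means of the macrophage list and of Lgals3 were thus both higher in carcinoma than in cirrhotic liver, and the part of macrophage content in the Lgals3 values was not tested.

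Csf1r stood furthest above 0 among macrophage markers in carcinoma minus control, at 1.73 (95% interval -0.09 to 3.55), and 1.01 without control 5. Its deposited ratio was 1.0 to 6.24 in carcinoma and 0.0598 to 3.53 in control, where samples 1 and 3 were high. Its probe, number 741, lies 2 numbers from that of Plau.

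Stellate cell and myofibroblast markers gave 19 measured genes of 25, and their medians were 0.00 in cirrhotic minus control, 0.24 in carcinoma minus control and 0.23 in carcinoma minus cirrhotic. Pdgfra, a growth factor receptor of mesenchymal cells, separated cirrhotic liver from control, higher by 1.77 (limma adjusted p = 0.307), and from carcinoma, which was lower by 1.29 on the log2 scale (difference -1.29). With cirrhotic minus control 0.665% of probes separated with the first-named group higher, and with carcinoma minus cirrhotic 1.46% with it lower. Acta2, the actin of myofibroblasts, differed by 0.00, 0.24 and 0.23 in the 3 comparisons in the order above. Col1a1, a chain of the main scar collagen, differed by -1.11 in cirrhotic minus control, and with the running median removed by -0.45. Col3a1, the other main scar collagen, was furthest above 0 in carcinoma minus cirrhotic at 1.92, and Lox, which cross-links collagen, furthest below at -2.17. Vim, the filament protein vimentin, was furthest below 0 in cirrhotic minus control at -1.37. In carcinoma minus control the extremes were Col1a2, the partner chain of Col1a1, at 0.88 and Lox at -1.02.

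**Figure D4:**
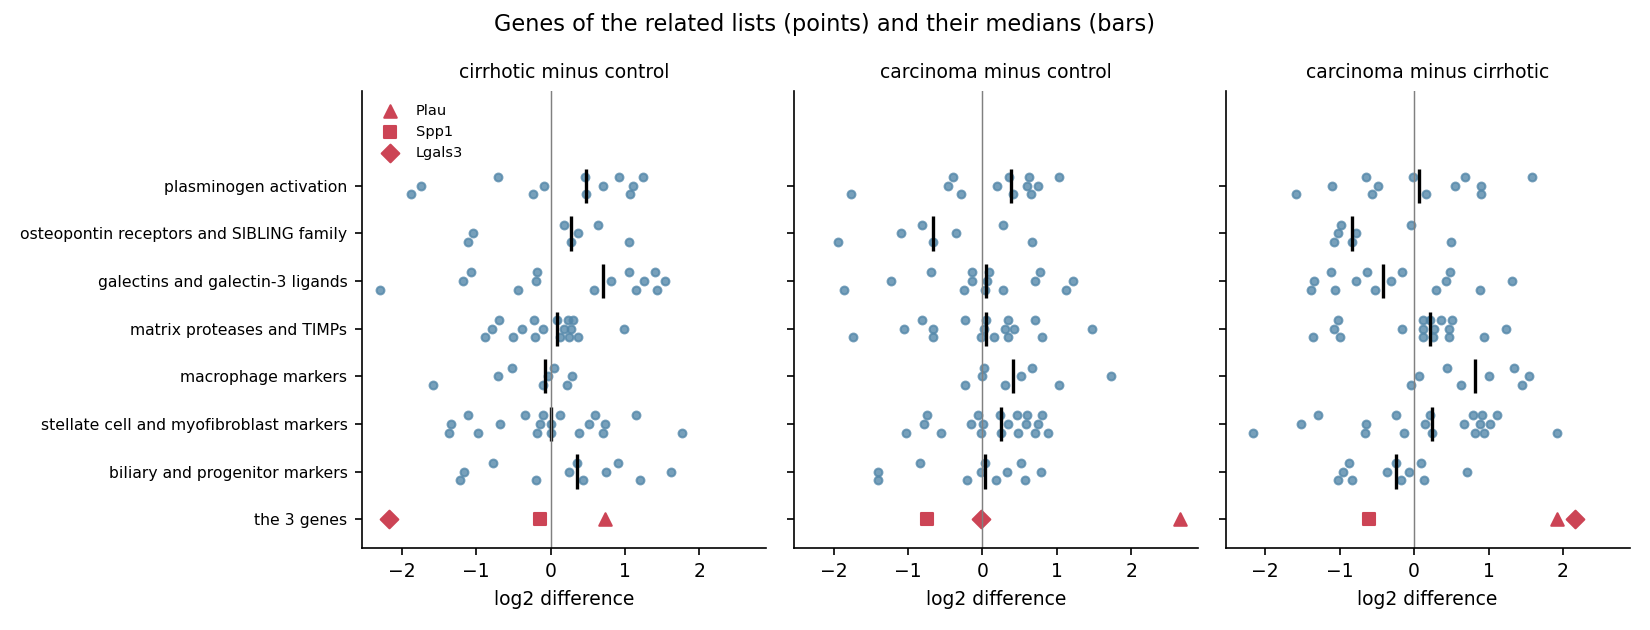
Log2 difference (x) in the 3 comparisons for the measured genes of 7 related lists (points, with the list median as a bar) and for Plau, Spp1 and Lgals3 (bottom row). Plau in carcinoma minus control (2.65) lies above every gene of these lists, whose highest is Csf1r at 1.73. Plau was noticed in that comparison, so its place above the lists is not independent of the choice. The macrophage median stands at 0.82 in carcinoma minus cirrhotic.

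Endothelial markers had 6 measured genes of 15 and lymphocyte and neutrophil markers 13 of 25, with 0 past an adjusted p in limma in either list. Endothelial medians were -0.30 in carcinoma minus control and -0.37 in carcinoma minus cirrhotic, with Kdr, a receptor of vascular growth factor, furthest below 0 in the latter at -1.36 and Nos3, the endothelial nitric oxide synthase, furthest above at 0.35. Vwf, a clotting protein of endothelium, was lowest in cirrhotic minus control at -1.24 (-0.45 with the running median removed) and in carcinoma minus control at -1.17, where Sele, an adhesion selectin, was highest at 0.01. Flt1, another receptor of vascular growth factor, was highest in cirrhotic minus control at 1.09. Lymphocyte and neutrophil medians were 0.40, 0.32 and 0.03 in cirrhotic minus control, carcinoma minus control and carcinoma minus cirrhotic. With the running median removed the first of these was -0.03. Cd28, a costimulatory receptor of T cells, separated cirrhotic liver from control, higher by 2.57 (limma adjusted p = 0.421), and with the running median removed it was 2.09 and overlapped. It was furthest below 0 in carcinoma minus cirrhotic, at -2.23. S100a8, a calcium-binding protein of neutrophils, was lowest in cirrhotic minus control at -1.05 and highest in carcinoma minus cirrhotic at 1.03, and with the running median removed these were -0.11 and 0.47. In carcinoma minus control the extremes were Prf1, the perforin of killer cells, at 1.14 and Cd5, a T cell surface protein, at -0.59. Over the 10 lists 123 genes were measured, and few of them separated the groups. In cirrhotic minus control 2 separated higher and 1 lower, beside 0.665% and 0.985% of all probes. In carcinoma minus control 1 separated higher and 2 lower, beside 1.06% and 0.825%, and in carcinoma minus cirrhotic 0 higher and 2 lower, beside 1.25% and 1.46%. These counts are near what those shares give over 123 genes.

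Across the 15 samples the 3 genes did not move together closely. Pearson's r between log2 ratios, given as a description over 15 samples that share tissue and array effects, was -0.41 for Plau and Spp1, 0.24 for Plau and Lgals3 and -0.25 for Spp1 and Lgals3. With the running median removed these were -0.24, 0.54 and 0.09. Spearman's rho on the normalized values was -0.40, 0.30 and -0.21.

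The genes whose pattern over the 15 samples was most like that of Plau were Rab4b, a small GTPase of endosomes (r = 0.86), Dpp6, a potassium channel subunit (0.86), Pyy, a gut hormone (0.85), Jup, the junction protein plakoglobin (0.84), and Nr0b2, a nuclear receptor active in bile acid control (0.84). Their probes lay 75 to 2892 numbers from that of Plau, and with the running median removed their r was 0.82 to 0.92. Most like Spp1 were Ctsh, a lysosomal cathepsin (r = 0.82), Psmb6, a proteasome subunit (0.79), Akt1, a kinase of growth factor signalling (0.76), Prim1, a primase subunit (0.76), and Gucy1b1, a subunit of soluble guanylate cyclase (0.73). Most like Lgals3 were Ppp1r1a, a phosphatase inhibitor (r = 0.94), Prp2 (0.85), Bckdha (0.85), Mlst8, a subunit of mTOR complexes (0.84), and Mgp (0.84). Of these last, Ppp1r1a, Bckdha and Mgp had probes 43, 2 and 1 numbers from that of Lgals3, and the r of the 5 genes was 0.71 to 0.89 with the running median removed.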

How the data were processed

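Values were taken from the series' table of 15 arrays and 3757 probes. The deposited values are a linear ratio to each probe's own median over the 15 arrays, judged from the values: that median was 1, within a tolerance of 1e-06, in all 3757 probes. For the platform, labelling and software nothing is given in the sources used here. No absolute level or detection call is held, and the number of arrays limits the precision. Arrays of the same tissue were not closely alike in these centred values. Pearson's r between them, on normalized log2 ratios of all probes, ran from -0.35 (controls 1 and 5) to 0.54 (carcinomas 3 and 4). In all, 657 values sat at a lower limit of 0.01, most in control 1 (229) and cirrhotic 1 (209).

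Arrays differed in mean (highest over lowest 1.49, with 2% trimmed at each end), so ratios were quantile-normalized and put on the log2 scale. All 15 samples entered 1 model with group as its term (lmFit, eBayes with a trend, limma 3.58.1, R 4.3.3). Tests were two-sided, with Benjamini-Hochberg adjustment over 3757 probes. The fit was checked on residuals of these arrays, shuffled among the samples, with known log2 shifts added to some probes. That check required only that the mean shift was recovered. How often such shifts passed an adjusted p is not reported here. Symbols came from the platform annotation, and for genes with several probes the probe varying least within groups stood for the gene. Named genes were the 3 genes, 15 measured of 25 partners, the extremes of each list, and the 5 genes of highest r; separated genes and neighbours by number were added after their values were seen. The members, lists and alternatives were chosen with earlier results of these data known. Groups are called separated where their ranges do not overlap. 0 columns were left aside. Figures used matplotlib 3.10.9.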

Additional observations from a re-analysis of the deposited data

Results flagged for a closer look

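Among 54 sets of 5 samples (the 3 genes and 15 partners in 3 tissues), 1 held a sample far from the others by Dixon's criterion, which chance gives in about 5% of such sets. Mgat5 in control 4 had a log2 normalized ratio of 3.17, while the other controls lay between 0.40 and 1.05. Without control 4 carcinoma minus control was -1.40 for Mgat5, in place of -1.85.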

How the results depend on the processing

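Plau in carcinoma minus control stayed between 2.43 (0.1 added before log2) and 2.82 (each array scaled to the same median) and separated in all 11 other settings. Without any 1 of the 15 samples it ran from 2.50 to 2.91 and also separated. Settings that changed only the fit, the set of probes or an added constant kept the order of values. Separation of any gene could not change there. Leaving out a sample could end a separation only through the renewed normalization. Plau in carcinoma minus cirrhotic ran from 1.68 (values as deposited) to 2.31 (without control 1 and cirrhotic 1 together) and from 1.37 to 2.36 without 1 sample. Lgals3 in carcinoma minus cirrhotic ran from 1.51 (floor at the 10th percentile) to 2.32 and from 1.69 to 2.40 without 1 sample, and lost its separation only after removal of the running median by probe number. Lgals3 in cirrhotic minus control ran from -2.18 to -1.23 and, without 1 sample, from -2.48 to -1.70, with limma adjusted p from 0.218 to 0.995 over the settings and 0.101 to 0.611 without 1 sample. Carcinoma minus control for Lgals3 changed sign with the setting (-0.03 to 0.43) and with the sample left out (-0.34 to 0.25). Spp1 in cirrhotic minus control turned to 0.021 with array quality weights, and ran from -0.40 (without control 2) to 0.21 (without control 5), with 0.06 without control 3 and 0.04 without cirrhotic 1. The cause was not tested.

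The counts of separated probes, 62 in cirrhotic minus control, 71 in carcinoma minus control and 102 in carcinoma minus cirrhotic, were 15, 75 and 56 with the running median removed and 146, 108 and 293 without control 1 and cirrhotic 1 together, where fewer samples make separation easier. Without 1 sample they ran from 62 to 199, 71 to 142 and 102 to 293. List genes separated in any comparison numbered 6, then 13 without those 2 samples, 3 with only probes that had no value at the lower limit, where fewer probes enter, and 7 to 13 without 1 sample. Probes past an adjusted p of 0.05 in limma in carcinoma minus cirrhotic numbered 0, and 2 without cirrhotic 5. The labels do not say whether replicate numbers pair the samples. Deviations of same-numbered samples correlated from -0.34 to 0.39, and those of different numbers from -0.40 to 0.60. Array effects enter both ranges, which overlap, so these correlations cannot decide whether samples shared an animal. Each replicate number occurs once in each tissue, so a replicate block could not change the differences (Plau 2.65 in carcinoma minus control). It could change only their standard errors. Lgals3 in cirrhotic minus control then had a limma adjusted p of 0.341.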
